A study of Mus musculus with 23 samples.

Results

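Heat shock proteins and their cochaperones were examined by RNA-seq in mouse retinal microglia that had been sorted by their GFP. The set holds 10 genes, taken by symbol from the 35825 genes of the deposited matrix: the HSP70 genes Hspa1a, Hspa1b and Hspa8, the HSP90 genes Hsp90aa1 and Hsp90ab1, the small heat shock protein gene Hspb1, the cochaperone genes Dnajb1, St13 and Bag3, and Hsf1, the heat shock transcription factor. All 10 passed the filter on low values, as did 17102 genes in all. The 23 libraries fall into 6 groups. Mice labelled WT carry CX3CR1-GFP, a GFP allele at the fractalkine receptor gene, and mice labelled KO carry CX3CR1-GFP together with a global deletion of Spp1, the gene for osteopontin. Both genotypes therefore share the GFP allele, which the study describes as heterozygous. Each genotype was sampled in retinas labelled control, called naive here (4 libraries each). The other groups were taken at 4 weeks after elevation of intraocular pressure (IOP, 4 each) and at day 7 after optic nerve crush (ONC, 3 WT and 4 KO). The study describes saline injection for microbead controls, and the labels do not say whether the control eyes were injected. IOP was raised by microbeads injected into the anterior chamber. For its sorted cells the study describes pooling retinas of several mice before enzymatic dissociation. Its caption for an RNA-seq panel gives n = 4 mice, and the labels do not say whether a library is a pool of animals. The ages of the mice are not given in the sources used here.

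Heat shock proteins keep other proteins folded. HSP70 binds exposed stretches of unfolded protein, J-domain proteins such as DNAJB1 deliver the clients and start the ATP cycle, and nucleotide exchange factors such as BAG3 release them. ST13 holds HSP70 in its client-bound state, and HSP90 finishes or stabilises clients handed over from HSP70. HSF1 is kept silent by these chaperones and, once they are occupied by damaged protein, switches on Hspa1a, Hspa1b, Hspb1, Dnajb1 and Bag3. HSPA8, the constitutive HSP70, also carries selected proteins to lysosomes in chaperone-mediated autophagy, with ST13, HSP90 and DNAJB1 among its partners. The study compared genes of this pathway between KO and WT microglia and reported St13, Hsp90ab1 and Dnajb1 as altered in KO. In microglia the inducible members are also known to respond to dissociation and sorting, so a level in sorted cells is a level after handling.

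The values are normalized counts, in which the reads of a gene are scaled by the size factor that its library received, on 22180480 to 30296094 reads per library. Spp1, the deleted gene, was still read in libraries labelled KO. In naive retinas the libraries labelled KO held 6.78 to 350 normalized counts of Spp1, with replicate 1 at 350, and WT held 334 to 1520. After IOP elevation KO replicates 2 and 4 held 811 and 761, within the naive WT range, while replicates 1 and 3 held 25.5 and 9.28. All WT IOP libraries were higher, at 1340 to 2770. After ONC KO replicates 1, 2 and 4 held 4750, 6810 and 6230, above every naive WT library, and replicate 3 held 15. WT ONC libraries held 14600 to 22900, so every KO ONC library was below them. KO therefore means the libraries labelled KO throughout. The 4 KO IOP libraries also stood apart in Cx3cr1, the locus of the GFP allele, at 952 to 1230 against 9420 or more in every other library. The Y-linked gene Ddx3y differed within and between groups. It was under 10 in 4 of 4 KO IOP libraries, in WT ONC replicates 2 and 3 (9.21 and 3.51) and in WT naive replicate 3 (0), it was at 28.1 in KO naive replicate 3, and it was at 556 to 2620 in the other 15 libraries, among them all WT IOP and all KO ONC libraries. After IOP elevation, genotype cannot be told apart from the sex of the mice or from the low Cx3cr1 of the KO libraries. Sex also differed in part between WT ONC and the groups it is compared with. The part of sex or of the Cx3cr1 difference in the results was not tested.

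The 12 genes of a homeostatic microglia list were above 0 in every library and summed to 1.36 to 3.97% of normalized counts. Markers of other retinal cells were present as well. All 13 rod photoreceptor genes were above 0 in every library, at 0.531 to 3.79% in sum. The rod share was 1.5 to 1.83% in WT naive, 1.65 to 2.82% in WT IOP, 0.531 to 1.94% in WT ONC, 1.21 to 3.79% in KO naive, 0.894 to 1.57% in KO IOP and 0.740 to 1.08% in KO ONC. A library of KO naive (replicate 3) differed from the other 3 of its group, with 1.21% rod and 3.95% microglia markers against 3.19 to 3.79% and 1.36 to 1.86%. A library of WT ONC (replicate 2) held 1.94% rod markers against 0.531 and 0.625% in the other 2. Of the other lists, Müller glia and astrocyte (7 genes) held 0.0898 to 0.566% over the 23 libraries, bipolar and amacrine cell (10 genes) 0.0269 to 0.236%, border macrophage (7 genes) 0.00582 to 0.223%, pigment epithelium (6 genes) 0.00107 to 0.208%, cone photoreceptor (6 genes) 0.0113 to 0.178%, retinal ganglion cell (7 genes) 0.00151 to 0.0608%, endothelial cell and pericyte (5 genes) 0.00368 to 0.051%, and monocyte and neutrophil (5 genes) at most 0.0091%. Immediate early genes (15), which mark activation during handling, held 0.0545 to 0.0975%. In such mixtures, fewer cells of a type and less RNA per cell cannot be told apart.

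The promoters of the stress-inducible members were searched for the sequence to which HSF1 binds, the heat shock element, an array of inverted GAA units. RefSeq windows of GRCm38.p6 were found for 5 of the 10 genes, Hspa1a, Hspa1b, Hspb1, Dnajb1 and Bag3, in 6 windows. The 250 bases before the start were searched on both strands for a pair of units, GAANNTTC or TTCNNGAA, each of which reads the same on both strands. Matches are in capitals, and the windows are chr17:34972157-34972406 on the minus strand for Hspa1a, chr17:34959239-34959488 on the minus strand for Hspa1b and chr5:135887669-135887918 on the plus strand for Hspb1.

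Hspa1a: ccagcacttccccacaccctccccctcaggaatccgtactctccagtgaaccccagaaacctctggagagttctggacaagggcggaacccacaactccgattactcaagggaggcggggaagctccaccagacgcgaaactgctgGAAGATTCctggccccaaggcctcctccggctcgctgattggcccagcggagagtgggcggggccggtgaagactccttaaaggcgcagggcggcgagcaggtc

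Hspa1b: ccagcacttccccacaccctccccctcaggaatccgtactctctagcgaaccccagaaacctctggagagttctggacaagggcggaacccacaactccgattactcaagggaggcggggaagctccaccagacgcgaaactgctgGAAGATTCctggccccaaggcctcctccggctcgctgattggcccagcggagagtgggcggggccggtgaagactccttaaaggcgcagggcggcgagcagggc

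Hspb1: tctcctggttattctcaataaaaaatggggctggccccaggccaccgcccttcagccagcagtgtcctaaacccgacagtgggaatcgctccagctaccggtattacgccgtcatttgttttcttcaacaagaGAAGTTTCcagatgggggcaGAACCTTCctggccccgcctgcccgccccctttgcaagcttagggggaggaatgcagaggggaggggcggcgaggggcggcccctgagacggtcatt

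Hspa1a and Hspa1b each held 1 such pair, 104 to 97 bases before the start, and Hspb1 held 2, at 117 to 110 and 97 to 90 bases. The windows of Dnajb1 and Bag3 held 0. The second Dnajb1 window (chr8:83608298-83608547) lies inside the gene, which starts at 83608193. The first Dnajb1 window ends at 83608174, and that of Bag3 at 128523582, before the annotated gene start at 128523616. Sequence outside the windows was not searched, so absence of an element from these 2 genes is not shown. Of 32851 promoter windows of the same length, 12.8% held at least 1 pair. A triple array of units was in 0.466% of them and in 0 windows of the members. The windows of Hspa1a and Hspa1b were identical at 247 of 250 positions. The differences were C44T, T47C and T249G, written as the Hspa1a base, the position counted from 1 at the 5′ end of the window, and the Hspa1b base, so the element and its surroundings are the same in both. CCAAT, the motif of the factor NF-Y, lay 67 to 63 bases before both starts, and 33.8% of all windows held it on either strand.

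The levels of the 10 genes spanned a wide range. Per kilobase of transcript, Hspa8 was the highest at 20600 ± 3880 normalized counts (SD, n = 23 libraries), followed by Hsp90ab1 at 7260 ± 855, Hsp90aa1 at 2990 ± 1240 and St13 at 1720 ± 397. Dnajb1 (701 ± 131) and Hsf1 (641 ± 111) came next and did not differ beyond their spread. The inducible Hspa1b (286 ± 104) and Hspa1a (283 ± 106) did not differ beyond theirs either, and Bag3 (119 ± 41.2) and Hspb1 (73.9 ± 71.2) were lowest. By the ratio of the highest to the lowest group mean, Hspb1 (4.46), Hspa1b (3.80), Hspa1a (3.23), Hsp90aa1 (2.62) and Bag3 (2.05) varied most over the 6 groups, and Hsp90ab1 (1.24) least.

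**Figure D1:**
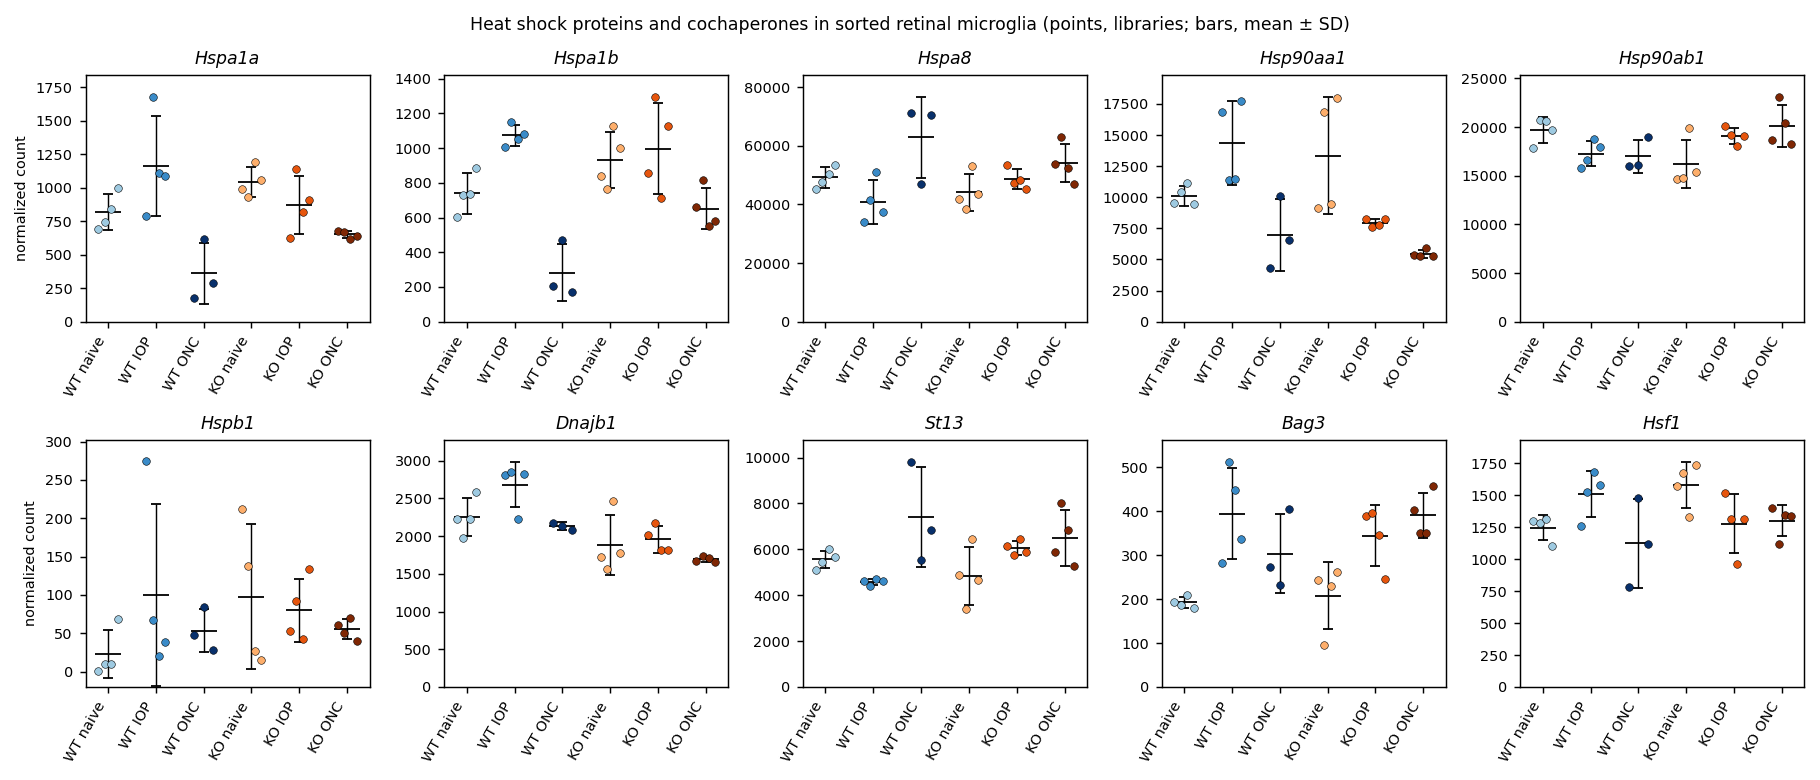
Normalized counts (vertical axes, linear) of the 10 genes in the 6 groups, with 1 point per library and bars for the mean ± SD. Hspa1a and Hspa1b have their lowest group means in WT ONC, and Hsp90aa1 falls into high and low libraries within WT IOP and KO naive. The 4 KO ONC libraries of Bag3 lie above the 4 KO naive libraries.

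In the 9 comparisons 5 changes of members were called. In WT microglia Hspa1a and Hspa1b fell after ONC, and in KO microglia Hsp90aa1 fell and Bag3 rose. Hsp90aa1 was the 1 member whose response to IOP elevation differed between genotypes by the test of that difference. With limma 0 members passed between KO and WT in naive retinas, after IOP elevation or after ONC. The study reported St13, Hsp90ab1 and Dnajb1 as altered in KO, from a heat map and with DESeq2 as its tool. It does not state the comparison or a fold change for these genes, so a disagreement is not shown. With DESeq2 on the present values these genes were not called between KO and WT either. A gene was called with limma at a Benjamini-Hochberg adjusted p under 0.05 over all 17102 genes and an absolute log2 fold change over 0.58. Fold changes are on the scale of log2(normalized count + 1), which understates the change of low genes.

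After ONC against naive, 2 of 10 members (20%) were called in WT, where 18.1% of all genes tested were. In KO 2 of 10 were called as well, against 23.6% of all genes. In the interaction of genotype with IOP elevation 1 of 10 (10%) was called, against 8.75%. Each of these shares is near that of all genes, so the members as a set did not stand out, and the results below are about single genes. edgeR and DESeq2 on whole reads recovered from the values gave the same 3 counts.

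Of the other 6 comparisons, 0 of 10 members were called by limma. KO against WT in naive retinas had 2 members at an unadjusted p under 0.05, 0 called by edgeR and 0 by DESeq2, and 0.409% of all genes called. KO against WT after IOP elevation had 3, 0 and 1, with 2.11% of all genes called, and KO against WT after ONC had 3, 0 and 1, with 0.0877%. IOP against naive had 3, 0 and 1 in WT, with 1.56%, and 2, 0 and 1 in KO, with 7.88%. The interaction of genotype with ONC had 2, 0 and 0, with 0.0702%.

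Groups without overlap were counted as well. Between KO and WT they were found for 1 of 10 members in naive retinas (Hsf1, KO above), where 9.60% of all genes were apart, for 3 after IOP elevation (13% of all genes) and for 2 after ONC (6.32%). IOP libraries lay apart from naive libraries for 4 members in WT (13.8% of all genes) and 1 in KO (11.7%). ONC libraries lay apart from naive libraries for 3 members in WT (26.4%) and 3 in KO (26.5%). Comparisons against naive share the naive libraries of their genotype, and those of KO with WT share libraries with them, so their values are not independent of each other.

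**Figure D2:**
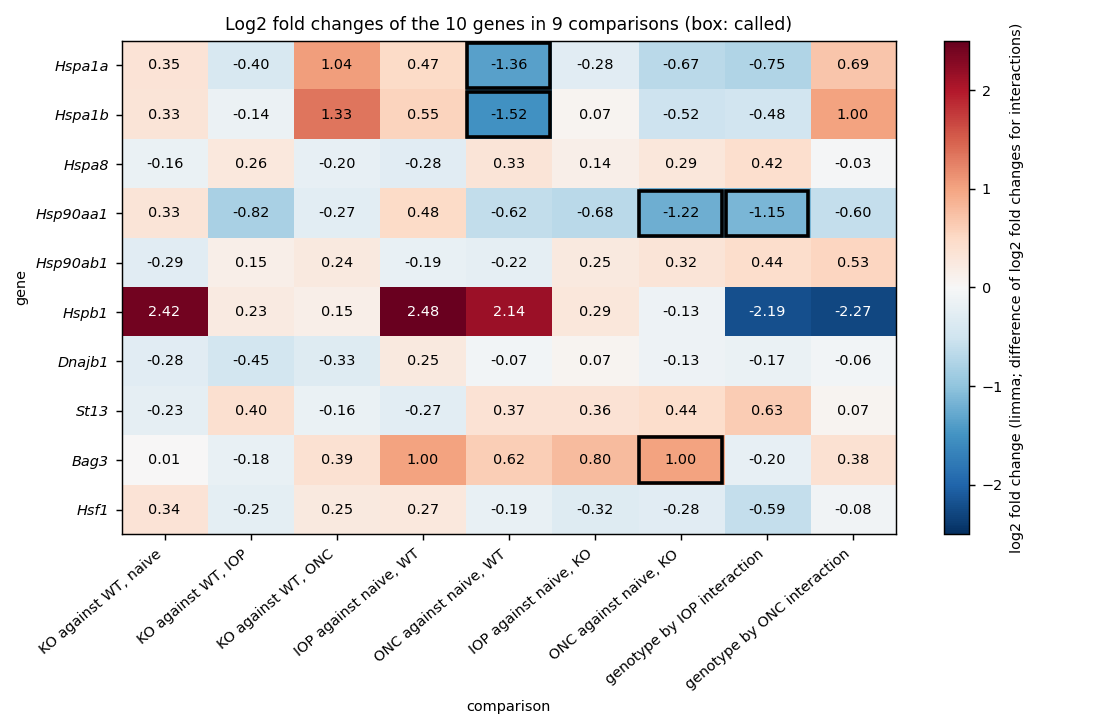
Log2 fold changes (colour and printed value) of the 10 genes (rows) in 9 comparisons (columns), with a black box around the 5 called values. The boxes are Hspa1a (-1.36) and Hspa1b (-1.52) after ONC in WT, Hsp90aa1 (-1.22) and Bag3 (1.00) after ONC in KO, and Hsp90aa1 (-1.15) for genotype by IOP elevation.

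Hspa1a and Hspa1b encode the same inducible HSP70. They lie on the minus strand of chromosome 17 of GRCm38, Hspa1a from 34969190 to 34972156 and Hspa1b from 34956436 to 34959238, each with 1 exon. Of the 31-base words in their annotated transcripts, 63.8% of those of Hspa1a and 67.6% of those of Hspa1b occur in the other, so that reads can be divided between them and their sum was fitted too. Hspa1a also overlaps Gm20481 on the opposite strand over 2225 bases. In WT naive Hspa1a stood at 692.4, 747.6, 842.9 and 1000 normalized counts, and in WT ONC at 178.5, 617.9 and 286.6. All 3 WT ONC libraries were below all 4 naive libraries, and replicate 2 lay closest to them. The log2 fold change was -1.36 (standard error 0.30, adjusted p = 0.00374), a level 0.39 times that of naive WT. Fitted on the WT ONC and WT naive libraries alone, Hspa1a had an adjusted p of 0.0719.

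Hspa1b was at 601.9, 731.3, 735.6 and 886.9 in WT naive and at 208, 471.8 and 168.4 in WT ONC. Again the groups did not overlap and replicate 2 was the highest of the 3. The log2 fold change was -1.52 (standard error 0.28, adjusted p = 0.000595), 0.349 times the naive level. The sum of both genes gave -1.42 (standard error 0.27, adjusted p = 0.000812), from 1560 ± 248 (SD, n = 4) to 644 ± 388 (SD, n = 3). WT ONC replicates 1 and 3, with the lower values of both genes, also had the lower rod shares (0.531 and 0.625%, against 1.94% in replicate 2). Other marker lists also moved in WT after ONC. Border macrophage genes were called lower for 6 of 7 (median -3.81; 0.00582 to 0.025% of normalized counts in WT ONC against 0.0675 to 0.147% in WT naive), retinal ganglion cell genes for 6 of 7 (median -2.81) and bipolar and amacrine cell genes for 5 of 10 (median -1.32), and 1 of 12 homeostatic microglia genes was called higher. Of 15 immediate early genes, 3 were called higher and 3 lower. The part of these lists in the fall of Hspa1a and Hspa1b was not tested. With the mean of the rod list as a covariate the sum Hspa1a+Hspa1b gave -1.28 (adjusted p = 0.00401).

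In the libraries labelled KO neither gene was called after ONC. Hspa1a was at 990.3, 928.8, 1189 and 1060 in KO naive and at 677.6, 673.3, 615.1 and 638.8 in KO ONC, without overlap (log2 fold change -0.67, standard error 0.28, adjusted p = 0.0855), and was called after quantile normalization (-0.71, adjusted p = 0.0377) and in a fit on these 2 groups alone (adjusted p = 0.0115). Hspa1b was at 836.8, 763.2, 1125 and 1002 in KO naive and at 658.4, 814.7, 548.6 and 582.3 in KO ONC, where replicate 2 overlapped the naive range (-0.52, standard error 0.26, adjusted p = 0.143). All 4 KO ONC libraries were above the 3 WT ONC libraries for Hspa1b, and 3 of 4 were for Hspa1a. Neither gene passed between KO and WT after ONC: Hspa1b had a log2 fold change of 1.33 (95% interval 0.76 to 1.91, adjusted p = 0.075) and Hspa1a of 1.04 (0.41 to 1.67, adjusted p = 0.258), and the sum of 1.17 (adjusted p = 0.124). Hspa1b did pass with DESeq2 (1.20, adjusted p = 0.0113) and with the rod covariate (1.34, adjusted p = 0.024). Border macrophage genes were higher in KO ONC than in WT ONC for 7 of 7 (1 called, median 2.56), at 0.0259 to 0.0945% against 0.00582 to 0.025%, and Ddx3y was at 1370 to 1720 in KO ONC. The part of either in the difference was not tested.

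The genotype difference after ONC depended on single WT ONC libraries. Without WT ONC replicate 2, the log2 fold change between KO and WT was 1.78 for Hspa1b (adjusted p = 0.000237) and 1.52 for Hspa1a (adjusted p = 0.00283). It was smaller and not called for Hspa1b without WT ONC replicate 3 (1.04) and for Hspa1a without WT ONC replicate 1 (0.63). The difference between the 2 responses to ONC, the interaction, was 1.00 for Hspa1b (standard error 0.38, adjusted p = 0.271) and 0.69 for Hspa1a (standard error 0.41, adjusted p = 0.513). Without WT ONC replicate 2 the interaction of Hspa1b was 1.44 (adjusted p = 0.0226), and without WT ONC replicate 3 it was 0.7 and not called. The 3 KO ONC libraries with Spp1 above the naive WT range were replicates 1, 2 and 4, and replicate 3, with Spp1 at 15, was the lowest of the 4 for both genes.

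After IOP elevation neither gene was called. Hspa1a was at 786.8, 1678, 1109 and 1086 in WT IOP and at 622.1, 1137, 816.6 and 910.8 in KO IOP. Replicate 2 was the highest library of both groups. Hspa1b was at 1006, 1150, 1055 and 1083 in WT IOP, above all 4 WT naive libraries (log2 fold change 0.55, standard error 0.26, adjusted p = 0.353), and at 855.2, 1294, 711.4 and 1125 in KO IOP. Between KO and WT after IOP elevation, the difference was -0.14 for Hspa1b (95% interval -0.67 to 0.39) and -0.40 for Hspa1a (-0.98 to 0.19). The SD of Hspa1b was 60 in WT IOP and 262 in KO IOP, a difference in spread that was not tested.

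The 3 genes whose centred log2 values followed those of Hspa1a most closely over the 23 libraries, Hspa1b aside, were Spats1, Cpsf7 and Kif3a. Their root mean square differences from Hspa1a were 0.34, 0.35 and 0.36, against 0.28 for Hspa1b and a median of 0.93 over all genes tested. Cpsf7 encodes a subunit of the complex that cleaves pre-mRNA 3′ ends, and Kif3a encodes a kinesin motor. Hspa1b shares sequence with Hspa1a, and the other 3 were named by this measure alone.

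Hspa8 (chromosome 9, 40800984 to 40810087, plus strand, 9 exons) encodes the constitutive HSP70. It ranked 46 among the genes tested by mean normalized count, and its span also holds the small nucleolar RNA genes Snord14c, Snord14d and Snord14e. It was at 45280, 47780, 50250 and 53580 in WT naive, at 33880, 41500, 51200 and 37310 in WT IOP, and at 70990, 46860 and 70540 in WT ONC. WT ONC replicates 1 and 3 were the 2 highest of all 23 libraries, and replicate 2 lay in the naive range. KO naive held 41820, 38340, 52970 and 43520, KO IOP 53400, 47330, 48280 and 45280, and KO ONC 53790, 63030, 52480 and 47060. The groups overlapped in every comparison, and no comparison passed. The largest differences were an interaction with IOP elevation of 0.42 (standard error 0.25, adjusted p = 0.285) and a difference from naive of 0.33 after ONC in WT (95% interval -0.07 to 0.72, adjusted p = 0.233). After quantile normalization Hspa8 differed from naive by -0.03 after ONC in WT, and its value of 0.29 in KO became -0.30, so no direction can be given. Within WT ONC, Hspa8 was highest in the 2 libraries in which Hspa1a and Hspa1b were lowest.

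The genes nearest to Hspa8 in their pattern over the 23 libraries were Aamp, Gm16286 and Ist1, each with a root mean square difference of 0.13 against a median of 0.76 over all genes. Aamp encodes a WD-repeat protein and Ist1 a component of the membrane-remodelling ESCRT-III machinery. The pattern of Hspa8 was flat, with a root mean square of 0.26 around its own mean, so that many genes of little change lie close to it.

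Hsp90aa1, the inducible cytosolic HSP90 (chromosome 12, 110690605 to 110702728, minus strand), fell after ONC in KO. It was at 9163, 16880, 9445 and 17940 in KO naive and at 5381, 5312, 5944 and 5258 in KO ONC. The 4 KO ONC libraries lay close together below all 4 naive libraries, while the naive libraries formed a low and a high pair. The log2 fold change of Hsp90aa1 was -1.22 (standard error 0.23, adjusted p = 0.000774), 0.43 times the naive level. With KO ONC replicate 3, where Spp1 was at 15, as the 1 KO ONC library, it was -1.10 (adjusted p = 0.122). In the same comparison 11 of 13 rod, 6 of 6 cone, 9 of 10 bipolar and amacrine and 6 of 7 ganglion cell markers were called lower, and 8 of 12 homeostatic microglia markers higher. Of 15 immediate early genes, 6 were called higher and 0 lower (median 0.75), where 23.6% of all genes were called. Their part in the changes of members was not tested. In WT Hsp90aa1 was at 9530, 10390, 11120 and 9430 in naive and at 4332, 10080 and 6544 in ONC, where replicate 2 overlapped the naive libraries (-0.62, standard error 0.25, adjusted p = 0.0911). Without that replicate the change in WT was -0.92 (adjusted p = 0.00874), and without WT ONC replicate 1 it was -0.31 and not called. The interaction of genotype and ONC for Hsp90aa1 was -0.60 (standard error 0.34, adjusted p = 0.484), so a difference between the 2 genotypes was not shown.

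After IOP elevation the fitted changes of Hsp90aa1 had opposite signs in the 2 genotypes. In WT IOP it was at 16840, 11420, 11430 and 17710, above all 4 WT naive libraries (log2 fold change 0.48, standard error 0.23, adjusted p = 0.386). In KO IOP it was at 8225, 7617, 7750 and 8264, below all 4 KO naive libraries (-0.68, standard error 0.23, adjusted p = 0.0722), a change that was called with DESeq2 (-0.75, adjusted p = 0.0284), after quantile normalization (-1.02, adjusted p = 0.0387) and without KO naive replicate 3 (-0.82, adjusted p = 0.0208). Without KO naive replicate 4 the change in KO was -0.51 and not called. Neither change passed alone with limma, but their difference did (interaction -1.15, 95% interval -1.84 to -0.47, adjusted p = 0.0337). After IOP elevation itself all 4 KO libraries were below all 4 WT libraries (-0.82, standard error 0.23, adjusted p = 0.0673). Hsp90aa1 passed there without WT IOP replicate 2 (adjusted p = 0.0479) and with DESeq2 (adjusted p = 0.0162). Without WT IOP replicate 4 the difference was -0.71 and not called. The interaction depended on single libraries. It was lost without WT naive replicate 1, 2 or 4, WT IOP replicate 1 or 4, KO naive replicate 2 or 4, or KO IOP replicate 2 or 3, which is 9 of 16 such fits, with adjusted p up to 0.0857. Without WT IOP replicates 1 and 4 together it was -0.86 (adjusted p = 0.271), and without KO IOP replicates 2 and 4, whose Spp1 was in the naive WT range, it was -1.15 (adjusted p = 0.0819). Without KO naive replicate 1, whose Spp1 was also in that range, it was -1.31 (adjusted p = 0.0267). The KO IOP libraries also differed from all WT IOP libraries in Cx3cr1 and Ddx3y, and the part of either was not tested.

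The libraries highest in Hsp90aa1 were also high in rod markers. The 4 libraries above 16000 normalized counts, WT IOP replicates 1 and 4 and KO naive replicates 2 and 4, had rod shares of 2.61, 2.82, 3.40 and 3.79%. KO naive replicate 1 had a rod share of 3.19% with Hsp90aa1 at 9163, and every other library had at most 1.94% and at most 11430. With the mean of the rod list as a covariate, the interaction with IOP elevation was -0.41 (adjusted p = 0.617) and the change after ONC in KO was -0.54 (adjusted p = 0.230), while the change after ONC in WT was -0.28 (adjusted p = 0.345). WT IOP replicates 1 and 4 were also the 2 libraries with the most lens transcripts, at 0.875 and 0.950% for the sum of 13 lens genes, against 0.184 and 0.128% in the other 2 WT IOP libraries and at most 0.0189% elsewhere. For the sum of Hspa1a and Hspa1b the libraries went both ways. KO naive replicates 1, 2 and 4, the 3 libraries with the highest rod shares, held 1692 to 2062, less than the 2313 of KO naive replicate 3. WT ONC replicates 1 and 3, with the lowest rod shares (0.531 and 0.625%), held the lowest sums, 386.5 and 455. KO ONC, with rod shares of 0.74 to 1.08%, held 1164 to 1488. Apart from fits with the rod list as a covariate, the part of rod transcripts in these sums was not tested. The covariate result for the sum after ONC in WT is given above.

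**Figure D3:**
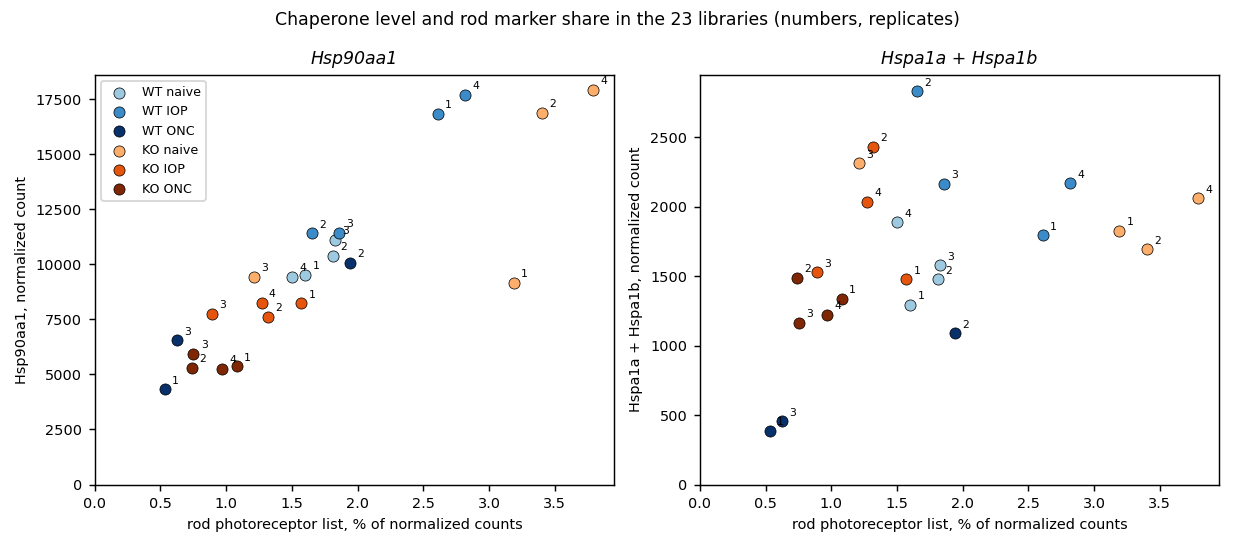
Normalized counts of Hsp90aa1 (left) and of the sum of Hspa1a and Hspa1b (right) against the share of normalized counts in 13 rod photoreceptor genes (horizontal axes, percent), with 1 point per library, coloured by group and numbered by replicate. The 4 libraries with Hsp90aa1 above 16000 have rod shares of 2.61 to 3.79%, and KO naive replicate 1 at 3.19% lies below them at 9163. WT ONC replicates 1 and 3 are lowest on both axes of the right panel.

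Hsp90ab1, the constitutive cytosolic HSP90 (chromosome 17, 45567775 to 45573271, minus strand), shares only 3 31-base words with Hsp90aa1, so the 2 genes are well separated in the counts. It varied little. WT naive held 17850, 20740, 20670 and 19650, WT IOP 15780, 16660, 18740 and 17920, and WT ONC 15990, 16080 and 18940. KO naive held 14690, 14810, 19930 and 15390, KO IOP 20060, 19180, 18080 and 19070, and KO ONC 18720, 23090, 20420 and 18280. In KO naive, replicate 3 was far above the other 3, and its rod and microglia marker shares also differed from theirs. All groups overlapped. The difference between KO and WT was -0.29 in naive retinas (standard error 0.13, adjusted p = 0.281), 0.15 after IOP elevation (95% interval -0.13 to 0.42) and 0.24 after ONC (-0.05 to 0.54). After quantile normalization the first of these was 0.01 and the second -0.06, so that no direction can be given for Hsp90ab1 between genotypes in naive retinas or after IOP elevation. Quantile normalization also called Hsp90ab1 after ONC in WT (-0.60, adjusted p = 0.011, against -0.22 and 0.294 as deposited). Without KO naive replicate 3 the interaction with ONC was called (0.64, adjusted p = 0.0389, against 0.53 and 0.253).

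Hspb1, which encodes the small heat shock protein HSP27 (chromosome 5, 135887919 to 135889563, plus strand, 2 exons), was the lowest member, and 1 library lay under the detection limit. WT naive held 0.8877 (1 read), 9.805, 10.13 and 68.72, where the limit of 3 reads that 0 counts allow equals 2.41 to 4.03 normalized counts, depending on the library. WT IOP held 274.8, 66.79, 19.8 and 38.11, and WT ONC 48.32, 84 and 28.07. KO naive held 212.3, 137.5, 26.15 and 15.3, KO IOP 52.94, 91.42, 42.27 and 133.3, and KO ONC 61.06, 50.03, 69.65 and 39.81. Every group overlapped its control, since WT naive replicate 4 lay within the range of the other groups. Fitted log2 fold changes against WT naive were 2.48 after IOP elevation (standard error 0.94, adjusted p = 0.236), 2.14 after ONC (standard error 1.02, adjusted p = 0.142) and 2.42 for KO naive (standard error 0.94, adjusted p = 0.205). Without WT naive replicate 4, Hspb1 was called after ONC in WT, 3.02 higher (adjusted p = 0.0394). Without WT naive replicate 1 it was 1.29 higher and not called. In WT ONC replicates 1 and 3, where Hspa1a and Hspa1b were lowest, Hspb1 was within the range of the other groups.

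Among the cochaperones, Bag3 rose after ONC in KO. Bag3 (chromosome 7, 128523616 to 128546981, plus strand, 4 exons) encodes the HSP70 partner that directs clients to selective autophagy. It was at 244.1, 95.7, 230.6 and 261.8 in KO naive and at 403.4, 350.2, 350.4 and 457.3 in KO ONC. The groups did not overlap, and KO naive replicate 2 was far below the other 3. The log2 fold change was 1.00 (standard error 0.29, adjusted p = 0.0168), 2.00 times the naive level. Without KO naive replicate 2, Bag3 was 0.66 higher (adjusted p = 0.0835), with the rod list as a covariate 0.60 (adjusted p = 0.524), and with these 2 groups fitted alone 1.00 (adjusted p = 0.0612). Without KO ONC replicates 1, 2 and 4, whose Spp1 was above the naive WT range, it was 0.85 (adjusted p = 0.351).

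Bag3 was higher after injury in the other 3 comparisons too, without passing. WT naive held 193.5, 187.1, 208.6 and 180.2, the tightest of the 6 groups, WT IOP 281.2, 511.3, 448.9 and 337.7, and WT ONC 273.8, 231.3 and 404.7. All WT IOP and all WT ONC libraries were above all WT naive libraries. The log2 fold change was 1.00 after IOP elevation (standard error 0.29, adjusted p = 0.0994) and 0.62 after ONC (standard error 0.32, adjusted p = 0.177). Bag3 was called after IOP elevation in WT with DESeq2 (1.04, adjusted p = 0.011) and with the rod covariate (1.14, adjusted p = 0.0364). KO IOP held 388.9, 396.8, 345.4 and 246.4, with replicate 4 inside the naive range (0.80, standard error 0.29, adjusted p = 0.0873). Between KO and WT the differences of Bag3 were 0.01 in naive retinas (95% interval -0.60 to 0.63), -0.18 after IOP elevation (-0.79 to 0.43) and 0.39 after ONC (-0.27 to 1.06), intervals that include changes of either sign.

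Dnajb1, the main J-domain partner of inducible HSP70 (chromosome 8, 83608193 to 83612653, plus strand, 3 exons), was lower in KO than in WT in each condition, without passing. WT naive held 2230, 1981, 2230 and 2589, WT IOP 2817, 2852, 2233 and 2820, and WT ONC 2180, 2138 and 2083. KO naive held 1725, 1564, 2465 and 1780, KO IOP 2014, 2175, 1817 and 1817, and KO ONC 1669, 1741, 1711 and 1656. All KO libraries were below all WT libraries after IOP elevation and after ONC, and in naive retinas KO replicate 3 overlapped. The differences were -0.28 in naive retinas (standard error 0.14, adjusted p = 0.340), -0.45 after IOP elevation (standard error 0.14, adjusted p = 0.0848) and -0.33 after ONC (standard error 0.15, adjusted p = 0.498). Each is under the fold threshold of 0.58, and with quantile normalization Dnajb1 was called after IOP elevation (-0.62, adjusted p = 0.0182). A difference between genotypes in the response to injury was not shown, with interactions of -0.17 for IOP elevation (95% interval -0.58 to 0.23) and -0.06 for ONC (-0.48 to 0.37).

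St13, which encodes an HSP70-interacting protein (chromosome 15, 81363669 to 81400077, minus strand), was not called in any comparison. After IOP elevation it was at 4616, 4416, 4700 and 4621 in WT and at 6155, 5734, 6434 and 5895 in KO, with all KO libraries above. The difference of 0.40 had a standard error of 0.18 (adjusted p = 0.207). WT naive held 5116, 5443, 6000 and 5677, all above WT IOP, and KO naive 4894, 3387, 6433 and 4653. KO naive replicate 2 was the lowest and replicate 3 the highest library of its group. WT ONC held 9795, 5540 and 6857, and KO ONC 5868, 8029, 6830 and 5272. The interaction with IOP elevation for St13 was 0.63 (standard error 0.25, adjusted p = 0.115). It was 0.78 without KO naive replicate 3 (adjusted p = 0.0249), and 0.47 and not called without KO naive replicate 2. After ONC against naive, St13 was 0.37 higher in WT (adjusted p = 0.176) and 0.44 in KO (adjusted p = 0.0737). In KO it was 0.59 without KO naive replicate 3 (adjusted p = 0.0126), and 0.28 and not called without KO naive replicate 2. The 2 highest libraries of St13 were WT ONC replicate 1, where Hspa8 was also highest, and KO ONC replicate 2, where Hspa8 was the highest of its group.

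Hsf1, which encodes the regulator of the inducible genes (chromosome 15, 76477422 to 76501913, plus strand, 13 exons), was not called in any comparison. WT naive held 1294, 1283, 1310 and 1099, WT IOP 1259, 1522, 1678 and 1578, and WT ONC 779.8, 1474 and 1121. KO naive held 1572, 1673, 1331 and 1737, KO IOP 1516, 1317, 963 and 1314, and KO ONC 1398, 1120, 1347 and 1339. All KO naive libraries were above all WT naive libraries (log2 fold change 0.34, standard error 0.18, adjusted p = 0.366), with replicate 3 the lowest of them. In WT ONC, Hsf1 was highest in replicate 2, which was also highest in Hspa1a, Hspa1b and Hsp90aa1 and lowest in Hspa8 and St13. The interaction with IOP elevation was -0.59 (standard error 0.25, adjusted p = 0.140). HSF1 is mainly controlled after translation, so its mRNA is not a measure of its activity.

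The wider chaperone network was read from 8 lists with 107 other genes, all of which were tested. In KO against WT 0 were called in naive retinas (12 at an unadjusted p under 0.05) and 0 after ONC (7 at an unadjusted p under 0.05). The median log2 fold change of the 107 genes was -0.10 in naive retinas and -0.12 after ONC, against 0.03 over all genes in both. edgeR called 0 in both, and DESeq2 called 2 in naive retinas and 0 after ONC. Without KO naive replicate 3 limma called 9 in naive retinas, and without WT ONC replicate 2 it called 3 after ONC. After IOP elevation 5 were called (4.67%, against 2.11% of all genes), all lower in KO, as were 280 of the 360 genes called in all, and the median of the 107 was 0.06 against -0.03.

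Of those 5, 4 belong to the 9 small heat shock proteins. For Cryaa the log2 difference was -10.75 (standard error 1.33, adjusted p = 6.98e-05), for Cryab -4.57 (0.46, adjusted p = 5.61e-06), for Hspb2 -3.70 (0.93, adjusted p = 0.0395) and for Hspb6 -1.24 (0.29, adjusted p = 0.0277). Hspb2 averaged 2.55 normalized counts in KO IOP, close to the limit of 3 reads, so its fitted fold is not a bound. In 8 fits without 1 library each, Cryaa and Cryab were called in all, and Hspb2 was lost in 6 and Hspb6 in 5. Cryaa and Cryab encode the alpha-crystallins, small heat shock proteins that are major proteins of the lens. In WT, both rose after IOP elevation against naive, Cryaa by 8.15 and Cryab by 4.75. The lens list summed to 32360 to 226600 normalized counts in the 4 WT IOP libraries and to at most 5732 in every other library. Of its 13 genes, 3 were at 0 in all 4 KO IOP libraries and 0 in all 4 WT IOP libraries. Cryaa is itself on that list, and the part of lens transcripts in the small heat shock protein result was not tested. The other gene called was Clpp, the subunit of a mitochondrial protease (-0.63, standard error 0.16, adjusted p = 0.0465), which was lost in 6 of the 8 fits.

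After IOP elevation against naive, 3 of the 107 genes (2.8%) were called in WT and 1 (0.935%) in KO, against 1.56% and 7.88% of all genes. Besides the crystallins, Dnajc5, which encodes the cysteine string protein of secretory vesicles, fell in WT (-0.64, standard error 0.15, adjusted p = 0.0309, lost in 6 of 8 fits without 1 library). In KO, Fkbp5, an HSP90 cochaperone of steroid receptors, rose (0.87, standard error 0.25, adjusted p = 0.0384, lost in 7 of 8 such fits). Without KO naive replicate 3, the count in KO was 15 in place of 1. For genotype by IOP elevation 10 were called (9.35%, against 8.75% of all genes), 3 higher and 7 lower (6 without WT IOP replicate 1 and 24 without KO naive replicate 3), among them Cryaa (-9.36), Cryab (-5.74), Hspb2 (-4.33), Hspb6 (-1.80) and Fkbp5 (1.59, standard error 0.35, adjusted p = 0.0126). That of Fkbp5 was 0.95 with the rod list as a covariate (adjusted p = 0.290). The interaction with ONC called 0 with limma, edgeR and DESeq2 (8 at an unadjusted p under 0.05 with limma).

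ONC moved the chaperone genes in both directions. Against naive, 21 of 107 (19.6%) were called in WT, 11 higher and 10 lower, and 20 (18.7%) in KO, 12 higher and 8 lower. The count in WT was 9 without WT ONC replicate 1 and 37 without WT ONC replicate 2, and in KO it was 12 without KO naive replicate 2 and 30 without KO naive replicate 3. Of all genes 18.1% were called in WT, 1292 higher and 1801 lower, and 23.6% in KO, 2165 higher and 1878 lower. The counts of single lists are small, and differences between lists were not tested. Of 20 endoplasmic reticulum chaperones and genes of the unfolded protein response, 2 rose and 0 fell in WT and 4 rose and 0 fell in KO, with medians of 0.39 and 0.56, against -0.10 and -0.12 over all genes. Of 12 mitochondrial chaperones, 4 rose in WT and 2 in KO and 0 fell. Of 14 HSP90 cochaperones, 1 rose in WT and 4 in KO and 0 fell. Of 16 HSP70 and HSP110 partners, 2 rose and 3 fell in WT and 0 rose and 4 fell in KO. Of 17 J-domain proteins of the cytosol and nucleus, 2 rose and 5 fell in WT and 1 rose and 3 fell in KO. Of 14 subunits of the chaperonin TRiC and prefoldin 0 were called in either genotype (3 and 4 at an unadjusted p under 0.05), with all 14 higher in WT at a median of 0.31. The 9 small heat shock proteins gave 1 lower in WT and 1 higher and 1 lower in KO, and the 5 heat shock factors and regulators 1 lower in WT and 0 in KO.

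**Figure D4:**
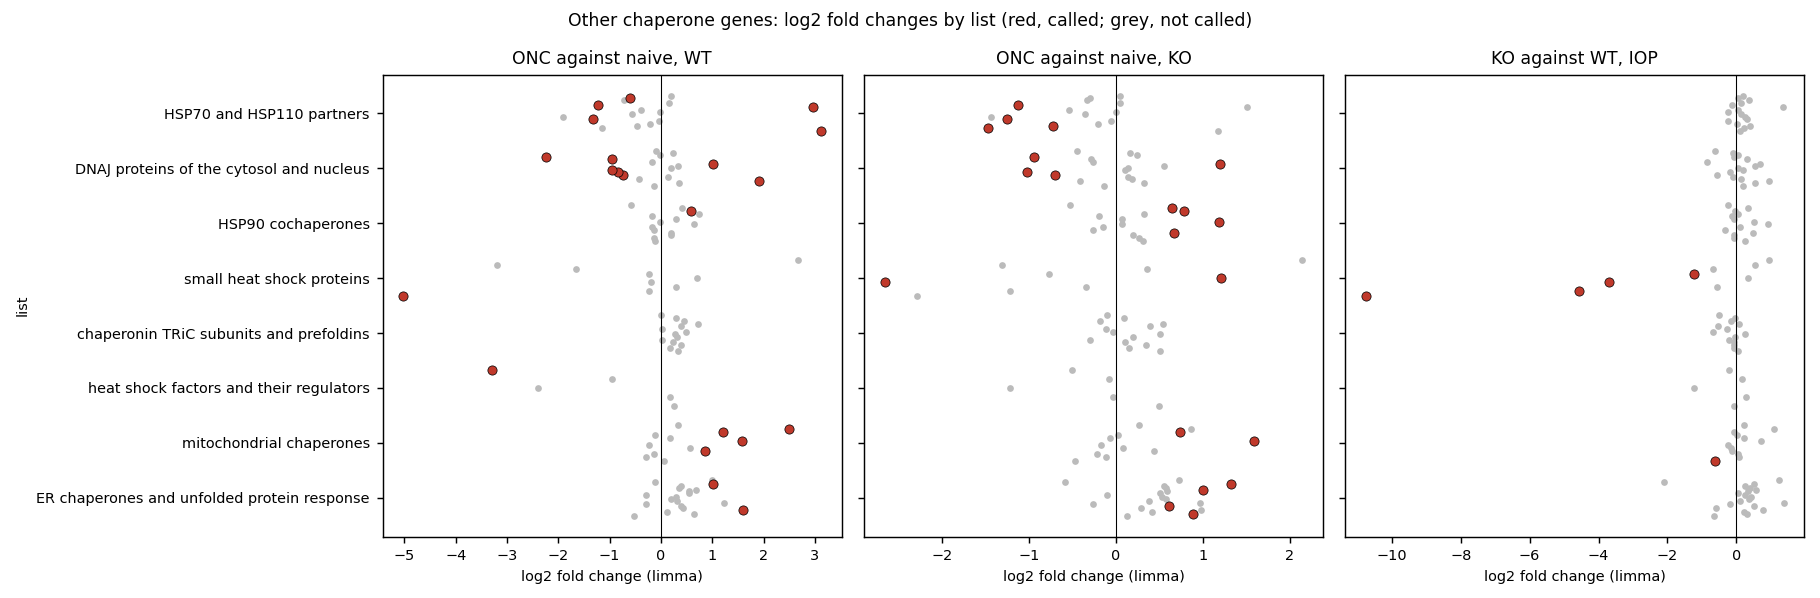
Log2 fold changes (horizontal axes, limma) of 107 other chaperone genes in 8 lists (vertical axis) after ONC in WT, after ONC in KO and between KO and WT after IOP elevation, with 1 point per gene and called genes in red. In the ONC panels called genes lie on both sides of 0 for J-domain proteins and to the right of 0 for mitochondrial and endoplasmic reticulum chaperones. Called HSP70 partners lie on both sides of 0 in WT and only to the left in KO. In the third panel 4 of 5 called genes are small heat shock proteins on the left.

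Among called chaperone genes, the 3 largest rises in WT after ONC were those of Bag1, Hspa4 and Lonp1. Hspa4, an HSP110 that exchanges nucleotide on HSP70, rose by 2.97 (standard error 0.63, adjusted p = 0.00243), from a mean of 613 to 4320 normalized counts. Bag1, another exchange factor, rose by 3.12 (standard error 0.88, adjusted p = 0.0167), from 143 to 1840, and had an adjusted p of 0.115 without WT ONC replicate 3. Lonp1, a protease and chaperone of the mitochondrial matrix, rose by 2.5 (standard error 0.74, adjusted p = 0.0217) and was lost in 4 of 7 fits without 1 library. All 3 lay above every naive library. In KO the same genes had log2 fold changes of 1.51 (Hspa4, adjusted p = 0.0637), 1.17 (Bag1, 0.304) and 0.86 (Lonp1, 0.373), and the interactions with genotype were -1.47, -1.96 and -1.64 (adjusted p = 0.501, 0.519 and 0.519), so no difference between the genotypes was shown. Cryaa fell by 5.02 (adjusted p = 0.0188, lost in 3 of 7 fits), and Hsf5, a factor expressed mainly in testis, was listed at 0 in all 3 WT ONC libraries and was at least 2.74-fold lower than in WT naive (10 ± 6.18, SD, n = 4) by the limit of 3 reads per library (limma adjusted p = 0.0256, lost in 4 of 7 fits).

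In KO after ONC, Hscb, a J-domain protein of iron-sulphur cluster assembly, rose by 1.58 (standard error 0.39, adjusted p = 0.00559) and Sdf2l1, of the endoplasmic reticulum, by 1.32 (standard error 0.32, adjusted p = 0.00475). Hspa12a, a distant HSP70, fell by 1.25 (standard error 0.20, adjusted p = 0.000152), Bag2 by 1.47 (standard error 0.42, adjusted p = 0.0137) and Hspb2 by 2.66 (standard error 0.93, adjusted p = 0.0411), to a mean of 1.92 normalized counts that is under the limit of 3 reads. Hspb2 was lost in 6 of 8 fits without 1 library. In WT the same contrast gave 1.57 for Hscb, 1.01 for Sdf2l1 and -1.33 for Hspa12a, each called, and -1.15 for Bag2 (adjusted p = 0.0783) and -0.19 for Hspb2 (adjusted p = 0.913). With the rod list as a covariate 1 of the 107 genes was called in KO in place of 20, and the adjusted p of Hspa12a was 0.0555.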

How the data were processed

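RNA-seq of 23 libraries of sorted retinal microglia was used. The authors quantified paired reads against GRCm38 and deposited a signal in units of normalized counts, that is, reads over the size factor of the library. The labels name STAR and DESeq2, and the paper's methods name salmon. Whole reads were recovered in all 23 libraries (largest deviation from a whole read 0.000208). Gene identifiers were matched to symbols for 35436 of 35825 genes, and positions are those of GENCODE M21. The limma package (3.58.1, R 4.3.3) was fitted with a trend to log2(normalized count + 1), with 6 groups and 0 covariates. Genes reaching 10 normalized counts in 3 or more libraries (17102) entered 9 comparisons, with Benjamini-Hochberg adjustment over all genes of a comparison. Labels do not say that libraries came from separate animals, so p-values measure the spread between libraries. limma and read recovery were tested on simulated data.

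The members, the 8 chaperone lists and the marker lists were chosen with earlier results of these data known. The genes named are the 10 members, at most the 5 largest called changes of the chaperone lists in a comparison, and the 3 genes closest to Hspa1a and to Hspa8 in centred log2 profile. Promoters are from RefSeq (GRCm38.p6). Alternatives were upper-quartile and quantile scaling, a pseudocount of 0.5 or 5, a filter on a mean of 50 or none, the replicate number as a block, the compared groups alone, the rod list mean as a covariate, edgeR 4.0.16, DESeq2 1.42.0, the adjusted p alone, the summed Hspa1a and Hspa1b, and leaving out each library. The removal of WT IOP replicates 1 and 4, KO IOP replicates 2 and 4 and KO ONC replicates 1, 2 and 4 was chosen after seeing the data. Figures were drawn with Python 3.11.15 and matplotlib 3.10.9. Intervals of log2 fold changes are those of limma, and the limit of 3 reads covers counting error only.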

Additional observations from a re-analysis of the deposited data

Results flagged for a closer look

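The response of Hsp90aa1 to IOP elevation differed between the genotypes by a test of the difference itself, with an interaction of -1.15 (95% interval -1.84 to -0.47, adjusted p = 0.0337). The rod marker shares that moved with it are given with the report of Hsp90aa1, and with them as a covariate the interaction was -0.41 (adjusted p = 0.617). The KO IOP libraries also differed from all WT IOP libraries in Cx3cr1 and Ddx3y, whose part was not tested.

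In 55 sets of 4 libraries (10 genes and the sum of Hspa1a and Hspa1b in 5 groups), 4 held a library farther from the other 3 than the 95% limit of Dixon's test allows. Chance flags about 1 in 20 such sets. Hsp90ab1 in KO naive replicate 3 was at 19930, against 14690 to 15390 in the other 3. Hspb1 in WT naive replicate 4 was at 68.72, against 0.8877 to 10.13. Dnajb1 in WT IOP replicate 3 was at 2233, against 2817 to 2852. Hsf1 in WT naive replicate 4 was at 1099, against 1283 to 1310.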

How the results depend on the processing

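The count of members called was recomputed under 13 alternatives set beforehand, 23 fits that each left out a library and 3 alternatives added later. Between KO and WT it was 0 to 0 over the fits without a library in naive retinas, 0 to 1 after IOP elevation and 0 to 2 after ONC (2 without WT ONC replicate 2, Hspa1a and Hspa1b). Against naive it was 0 to 0 (IOP, WT), 2 to 3 (ONC, WT), 0 to 1 (IOP, KO) and 1 to 3 (ONC, KO; 1 without KO naive replicate 2 and 3 without KO naive replicate 3), and 0 to 2 and 0 to 1 for the interactions with IOP elevation and ONC. DESeq2 gave 1 member in place of 0 for KO against WT after IOP elevation (Hsp90aa1) and after ONC (Hspa1b), and for IOP against naive in WT (Bag3) and in KO (Hsp90aa1). Quantile normalization gave 1 for KO against WT after IOP elevation (Dnajb1) and for IOP against naive in KO (Hsp90aa1). The rod covariate gave 1 for KO against WT after ONC (Hspa1b) and for IOP against naive in WT (Bag3), but 0 for ONC against naive in KO and for the interaction with IOP elevation. The latter was also 0 without WT IOP replicates 1 and 4 and without KO IOP replicates 2 and 4, and ONC against naive in KO was 0 without KO ONC replicates 1, 2 and 4, which leaves 1 KO ONC library, assumed to vary like the other groups. ONC against naive in WT was 1 with the compared groups alone (Hspa1b) and 1 with the 2 genes summed, by construction. The sum was called in 1 of 9 comparisons, in 2 with quantile normalization, with the compared groups alone and with the rod covariate, and in 1 to 4 over the fits without a library (4 without WT ONC replicate 2). Quantile normalization reversed Hsp90ab1 between KO and WT in naive retinas (0.01), after ONC in KO (-0.26) and in the interaction with IOP elevation (-0.07). The cause of these changes was not tested.

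Replicate numbers are shared between groups. Deviations of same-numbered libraries correlated at -0.25 to 0.15 over 26 pairs, 2 of them over 0.1, so the numbers do not pair the libraries. With the replicate block the counts of members called were 2 (ONC, WT), 2 (ONC, KO), 1 (interaction with IOP elevation) and 0 elsewhere.

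The scaling moved the median of all genes after ONC in WT from -0.10 to -0.21 (upper quartile) and 0 (quantile). Over all genes, the count called between KO and WT was 70 in naive retinas (1 to 1623 over the fits without a library, 14 with the compared groups alone and 536 with DESeq2), 360 after IOP elevation (109 to 574, 133 with the rod covariate and 940 with DESeq2) and 15 after ONC (2 to 744, and 100 with DESeq2). Against naive, 267 genes were called after IOP elevation in WT (102 to 332, and 589 with DESeq2), 1347 in KO (92 to 3182, and 3 with the rod covariate), 3093 after ONC in WT (1458 to 5213) and 4043 in KO (2798 to 5098, and 465 with the rod covariate). The interactions gave 1496 for IOP elevation (573 to 3074, and 129 with the rod covariate) and 12 for ONC (3 to 633, and 223 with DESeq2). Depth limits Hspb1, at 1 read in a WT naive library.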
